A study of Mus musculus with 34 samples.

Results

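The choroid plexus makes the cerebrospinal fluid, and the ependyma is the ciliated cell layer that lines the ventricles. 10 genes known for these tissues were followed through all fractions of the brains of newborn mice: Ttr, Kl, Folr1, Aqp1, Clic6, Kcne2 and Slc4a5, which are taken here as the 7 epithelial genes, and Otx2, Enpp2 and Foxj1, which are also known from other cells. The genes were chosen by name, with earlier results of these data known. Their probes were found through the RefSeq accession that the array files give for each probe. This matched 12 probes of the 10 genes, out of 20141 genes with a probe and 55681 probes that are not controls. All 10 genes were well above background in 1 or more fractions of each series. Folr1 and Slc4a5 had 2 probes each. For each of them the probe that was well above background in more fractions is the main probe.

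The brains came from male C57BL/6J mice aged 3 days, without any treatment named in the labels. 1 brain was cut into 15 coronal fractions, another into 8 horizontal fractions and the last into 11 sagittal fractions, each 500 μm wide, except that sagittal fractions 1 and 11 each pool 2 cut fractions. A fraction has 1 single-colour Agilent array and no replicate, series and mouse cannot be told apart, and the direction of counting is not in the labels. Levels are log2 signals relative to the 75th percentile of the array (log2 normalized signal), so that a value of 0 lies at that percentile. A difference between fractions in a tissue homogenate cannot tell more cells of a type from more RNA per cell.

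Choroid plexus is a folded epithelium on a bed of vessels that hangs into the ventricles of the forebrain and the hindbrain. Its cells carry ion and water transporters that secrete fluid, and they release carrier proteins into it. The ependymal cells beside it bear motile cilia that move this fluid. A plane of cutting that passes through several ventricles can therefore meet these tissues at several places, and the question asked of each series was how many separate maxima the genes had and where.

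Where each part of the brain lay along a series was read from marker lists. Along the coronal series the cerebellar list had its highest mean level in fraction 1, the Hox genes of the hindbrain in fraction 2, the midbrain list in fraction 6, the thalamic and hypothalamic lists in fraction 8, the striatal list in fraction 11, the cortical list in fraction 13 and the olfactory bulb list in fraction 15. Along the horizontal series the cortical and midbrain lists were highest in fraction 2, the thalamic list in fraction 5, the Hox genes in fraction 6 and the hypothalamic list in fraction 8. Horizontal fraction 1 stood apart from its neighbours. The Hox genes had a mean of -1.44 there, against -5.55, -6.71 and -4.48 in fractions 2 to 4. The hypothalamic list had -1.75 in fraction 1 against -4.39 in fraction 2. Counts of genes with 2 or more horizontal peaks are therefore given with and without fraction 1.

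Arrays had between 29598 and 37091 spots well above background and their log2 75th percentile ran from 8.07 to 9.18. The SD of log2 signals over repeated spots was 0.059 to 0.108, with no saturation. The arrays lay on 5 slides. Coronal fractions 1 to 8 shared slide 2, coronal fraction 12, horizontal fractions 3 and 4 and sagittal fractions 10 and 11 shared slide 5, and the other coronal fractions were on slide 3.

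RefSeq promoter sequences of build GRCm38.p6 were given for 5 of the 10 genes (Kl, Aqp1, Otx2, Kcne2 and Slc4a5), with 9 start sites in all. The 250 bases before each start were searched for TAATCC, the core of the site that Otx proteins bind, and for its other strand GGATTA, because Otx2 is itself one of the genes and is known as a regulator of the plexus. This motif was held by 6.25% of the 32851 promoters given. Of the 9 start sites, 1 held it, at Otx2 itself, beginning 211 bases before the start. The 5 start sites of the 4 epithelial genes held 0, which says only that these letters are not in these windows. Slc4a5 and Kcne2 are shown because their profiles were among the most alike, and Otx2 because its window holds the match. They lie at chr16:92292139-92292388 on the forward strand (Kcne2, the first of its 2 starts), chr6:83237125-83237374 on the forward strand (Slc4a5) and chr14:48665110-48665359 on the reverse strand (Otx2, 1 of its 4 starts). Capitals mark the motif.
Kcne2: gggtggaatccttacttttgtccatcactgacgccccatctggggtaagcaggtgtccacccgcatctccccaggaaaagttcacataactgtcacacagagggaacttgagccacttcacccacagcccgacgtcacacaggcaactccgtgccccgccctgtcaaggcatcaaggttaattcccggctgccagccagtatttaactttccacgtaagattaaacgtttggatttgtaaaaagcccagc
Slc4a5: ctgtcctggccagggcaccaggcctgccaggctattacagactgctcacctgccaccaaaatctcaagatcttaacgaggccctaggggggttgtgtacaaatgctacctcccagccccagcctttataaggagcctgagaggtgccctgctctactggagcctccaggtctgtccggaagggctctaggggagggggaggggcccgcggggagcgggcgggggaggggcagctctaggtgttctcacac
Otx2: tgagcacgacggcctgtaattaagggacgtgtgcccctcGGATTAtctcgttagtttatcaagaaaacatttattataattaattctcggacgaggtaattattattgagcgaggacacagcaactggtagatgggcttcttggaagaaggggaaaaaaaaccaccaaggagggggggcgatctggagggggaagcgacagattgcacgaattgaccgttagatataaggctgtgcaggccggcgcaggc

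In the coronal series the plexus genes had a sharp first maximum in fraction 3 and a broader one in fractions 9 to 11. Ttr, which encodes transthyretin, the carrier of thyroid hormone in the cerebrospinal fluid, had a log2 signal of -0.99 in fraction 1, 6.47 in fraction 2, 8.32 in fraction 3 and 7.31 in fraction 4. It lay between 5.65 and 6.08 in fractions 5 to 8, then at 7.39, 7.59 and 7.54 in fractions 9 to 11, and at 5.04, 3.38, 2.65 and 3.87 in fractions 12 to 15. The highest of the 15 values was thus 637-fold above the lowest, and the maximum in fraction 3 and the broad one in fractions 9 to 11 were separated by a valley. Here a peak is a local maximum, in a fraction where the probe was well above background, that stands at least 1 log2 unit above the lowest point on the way to any higher value (its prominence). All 10 genes peaked in coronal fraction 3, where 2.75% of the 34186 probes detected in all 3 series peaked.

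Kcne2, Slc4a5 and Clic6 also had their highest coronal value in fraction 3. Kcne2, a potassium channel subunit of the apical membrane, had 2.23 in fraction 3, 1.35 in fraction 9 and was not well above background in fractions 1 and 14, so that its highest value was at least 114-fold above its lowest. This bound, like the others below, sets the dim fraction at the lowest signal called well above background on its array. Slc4a5, a sodium bicarbonate cotransporter, had 0.77 in fraction 3, -1.29 in fraction 10 and was not well above background in fractions 1, 13 and 14, a span of at least 41.5-fold. Clic6, a chloride channel protein, had 2.95 in fraction 3, 2.09 in fraction 10 and -2.18 in fraction 1, a span of 34.9-fold.

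Folr1, a folate receptor that carries folate into the fluid, had 3.87 in fraction 3, 2.89 in fraction 10 and -2.81 in fraction 1, a span of 103-fold. Kl, which encodes the membrane protein Klotho, had -0.91 in fraction 3 and -2.12 in fraction 9 and was not well above background in fractions 12 and 13, a span of at least 10.9-fold. Aqp1, the water channel of the apical membrane, had 3.09 in fraction 3, 1.59 in fraction 9 and -1.10 in fraction 12, and then its highest value of 3.62 in fraction 15. Of the 7 epithelial genes, 6 were therefore highest in coronal fraction 3, and Aqp1 in the last fraction, where 3.11% and 18.7% of all probes were highest.

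The second coronal maximum was in fraction 10 for Ttr, Folr1, Clic6, Slc4a5 and Foxj1, where 3.22% of all probes peaked, and in fraction 9 for Aqp1 and Kcne2, where 1.94% did. Kl and Enpp2 had a smaller maximum in fraction 9, above a prominence of 0.5 only. The rise from fraction 8 to fraction 9 coincides with the change from slide 2 to slide 3, whereas the fall from fraction 11 to fraction 13 lies within slide 3, so for the rise slide and position cannot be told apart. 6 genes (Ttr, Folr1, Aqp1, Clic6, Otx2 and Enpp2) also peaked in the end fraction 15, where 14.2% of all probes did. These positions are those of the main probes. Beside fraction 3, the second probe of Folr1 peaked in fraction 9 and that of Slc4a5 in fraction 11. Neither second probe was well above background in fraction 15. In all, 9 of the 10 genes had 2 or more coronal peaks, against 16.2% of all probes.

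**Figure D1:**
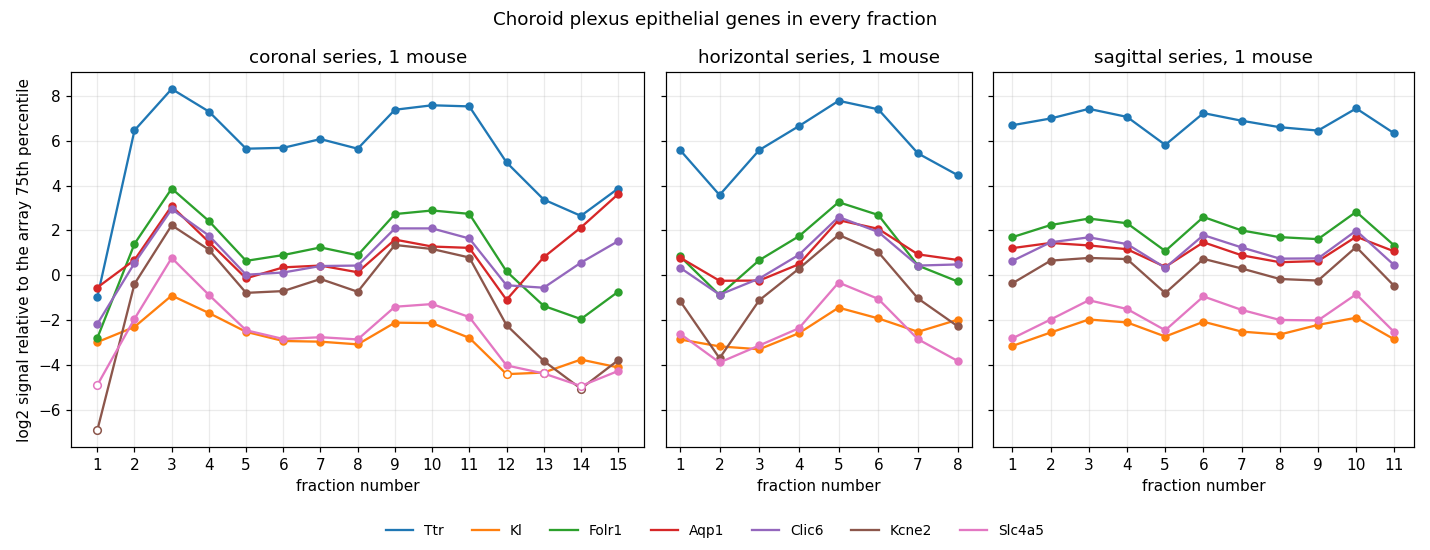
Log2 signal relative to the array's 75th percentile (vertical axis) against the fraction number, for the main probe of the 7 epithelial genes in the coronal, horizontal and sagittal series, 1 array per point. Filled points were well above background and open points were not. The coronal lines have a first maximum in fraction 3 and another in fractions 9 to 11, the horizontal lines have their highest value in fraction 5, and the sagittal lines have maxima near fractions 3, 6 and 10.

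The level in coronal fraction 3 relative to fractions 9 and 10 differed from gene to gene. Between fraction 3 and fraction 10 the difference in log2 signal was 2.06 for Slc4a5, with 2.47 by its second probe, 1.85 for Enpp2, 1.81 for Aqp1 and 1.63 for Otx2. It was 1.23 for Kl, 1.05 for Kcne2, 0.98 for Folr1, 0.86 for Clic6 and 0.74 for Ttr. Foxj1, the master regulator of motile cilia, had -0.10, close to the median of -0.09 over all probes. The ratio of fraction 3 to fraction 10 thus went from 4.16-fold for Slc4a5 to 0.93-fold for Foxj1, and the 9 other genes had a higher level in fraction 3. Against fraction 9, where Aqp1, Kcne2, Kl and Enpp2 had their second maximum, the differences were 1.49, 0.88, 1.21 and 1.71, and Otx2 had no peak in fraction 9 or 10. Each difference compares 1 array with another, on different slides, and has no replicate check.

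**Figure D2:**
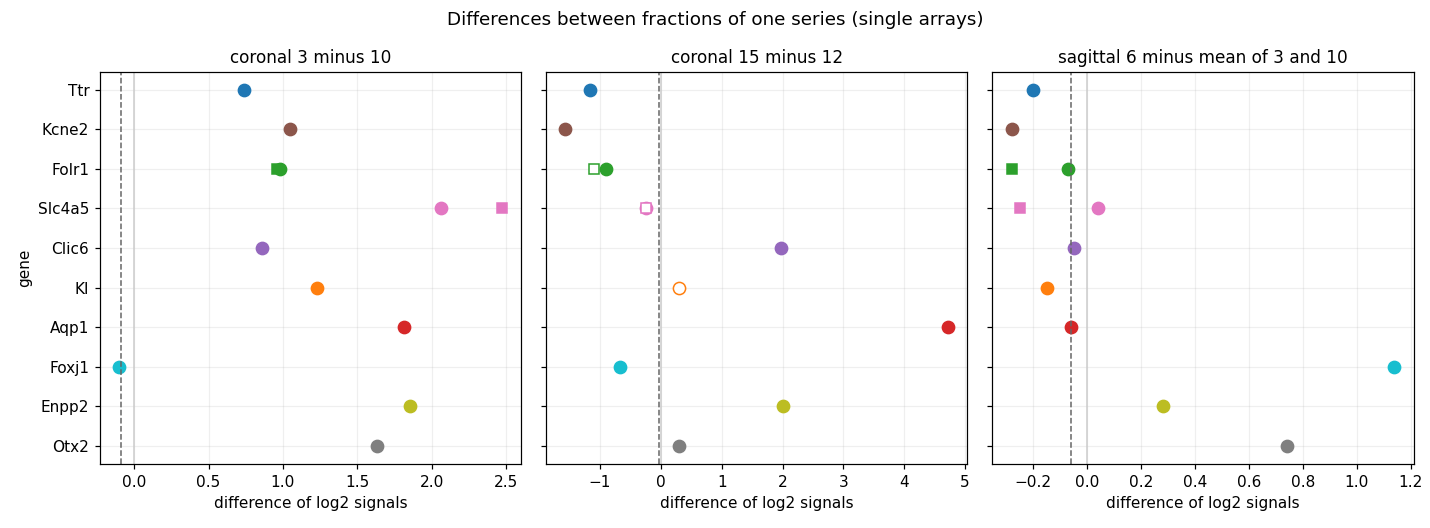
Differences in log2 signal (horizontal axes) between named fractions of 1 series for each of the 10 genes. Circles are main probes, squares the second probes of Folr1 and Slc4a5, open symbols have at least 1 fraction not well above background, and the dashed line is the median of all probes. Slc4a5 has the largest coronal difference between fractions 3 and 10 and Foxj1 lies at the dashed line there, while Aqp1 stands at 4.72 between coronal fractions 15 and 12 and Foxj1 at 1.14 in the sagittal panel.

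In the horizontal series the genes converged on a single fraction. Ttr had 5.60, 3.58, 5.59, 6.66, 7.79, 7.41, 5.44 and 4.47 in fractions 1 to 8, so that the level in fraction 5 was 18.5-fold above that in fraction 2. Kcne2 ran from -3.71 in fraction 2 to 1.80 in fraction 5, a 45.6-fold span, Folr1 from -0.89 to 3.26, and Slc4a5 from -3.90 to -0.33. Clic6 ran from -0.87 to 2.60, Aqp1 from -0.25 to 2.46, and Kl from -3.31 in fraction 3 to -1.45 in fraction 5. All 7 epithelial genes were highest in fraction 5, against 6.83% of all probes. All of the 10 genes but Otx2 peaked there, against 3.79% of all probes. Horizontal fractions 2 and 5 were both on slide 1.

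By their main probes, 7 genes had a further maximum in horizontal fraction 1, where 9.13% of all probes peaked. These made up the 7 genes with 2 or more horizontal peaks, against 7.23% of all probes. The second probes of Folr1 and Slc4a5 had a prominence of only 0.89 and 0.6 in fraction 1 and so did not peak there. Without fraction 1, 0 genes had 2 horizontal peaks. The Hox and hypothalamic lists were also higher in fraction 1 than in fraction 2, as given above, and the part of this in the maximum was not tested.

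All 10 genes had their smallest span in the sagittal series, although that of Otx2 was still 13.4-fold, against 20.6-fold in the coronal series. Ttr had 6.70, 7.00, 7.43, 7.07, 5.82, 7.24, 6.90, 6.61, 6.46, 7.45 and 6.33 in fractions 1 to 11, a span of 3.08-fold. The values have maxima in fractions 3, 6 and 10 and their lowest point in fraction 5. Slc4a5 peaked in the same fractions, with -1.12 in fraction 3, -0.95 in fraction 6 and -0.85 in fraction 10, and so did Clic6, with 1.69, 1.79 and 1.99. Kcne2 had 0.77, 0.73 and 1.26, Folr1 2.53, 2.60 and 2.83, and Kl -1.98, -2.08 and -1.90 in these fractions, and Aqp1 had 1.44 in fraction 2, 1.47 in fraction 6 and 1.72 in fraction 10. All 7 epithelial genes had, by their main probes, their highest sagittal value in fraction 10, where 7.47% of all probes were highest. For Ttr (7.45 against 7.43 in fraction 3) and Kl (-1.90 against -1.98 in fraction 3) the margin was small. The second probe of Slc4a5 was highest in fraction 3, with -2.7 against -2.74 in fraction 10.

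With a prominence of 1, 7 genes peaked in sagittal fraction 10 (3.7% of all probes), 5 in fraction 3 (1.97%) and 4 in fraction 6 (5.2%), and 6 genes had 2 or more peaks, against 6.99% of all probes. With a prominence of 0.5, all 10 genes peaked in fractions 6 and 10 and 7 in fraction 3, where 11.9%, 10.7% and 7.33% of all probes did, and 9 genes had 3 or more sagittal peaks, against 7.74% of all probes. Fractions 2 to 9 were on slide 4 and fractions 10 and 11 on slide 5. The dips on both sides of fraction 6 thus lay within 1 slide, as did the fall from fraction 10 to 11. For the rise from fraction 9 to 10, slide and position cannot be told apart.

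Whether these levels followed the distance from the midline was tested with limma in the 11 sagittal fractions, with fraction 6 as the middle and the fractions at equal distance from it as mirror pairs, which is an assumption. Over all probes this centre left a smaller median difference between mirror fractions (0.144 on the log2 scale) than a centre between 6 and 7 (0.163) or between 5 and 6 (0.195). The outer plexus maxima in fractions 3 and 10 are not a mirror pair about fraction 6. None of the 10 genes passed the F test over distance (adjusted p between 0.0671 and 0.561, limma), with 2 at an unadjusted p under 0.05, while 16.1% of all probes passed. The contrast of the 4 intermediate fractions (3, 4, 8 and 9) with the others passed for none of the genes (0 of 10 by limma, 1 at an unadjusted p under 0.05, differences between -0.60 and 0.29), and only 3 of all probes passed this test, 0.00878%. It counts fraction 3 as intermediate but fraction 10 among the others, so it cannot test for the outer maxima together.

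Medial fractions (5, 6 and 7) were compared with lateral ones (1, 2, 10 and 11) in the same fit. Otx2 had 2.77, 3.29 and 2.84 in the medial fractions and -0.45, 1.18, 2.60 and 0.65 in the lateral ones. The highest lateral value of 2.60 was close to the lowest medial value of 2.77. Otx2 was higher medially by 1.97 ± 0.57 (SE) on the log2 scale, with an adjusted p of 0.0417 in limma. This SE and p treat neighbouring fractions of 1 brain as independent and do not measure spread between mice. Of all probes, 7.22% were called higher medially and 16.6% in either direction. Leaving out 1 fraction at a time moved the difference between 1.49 and 2.51, and the call was lost on leaving out any fraction other than 10. Without the pooled fractions 1 and 11 the difference was 1.08 (adjusted p = 0.182, limma). The other 9 genes had differences between -0.45 for Aqp1 and 0.52 for Foxj1 and did not pass.

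Between the 2 sides, with the mirror pair as a block, 0 of the 10 genes passed in limma (adjusted p between 0.716 and 0.963, 0 at an unadjusted p under 0.05), as did 0 of all probes (0.0%). Differences of the high-numbered from the low-numbered side lay between -0.13 for Aqp1 and Foxj1 and 0.29 ± 0.36 (SE) for Otx2. The 5 mirror pairs come from 1 mouse, and these tests speak of positions in that brain only. That a gene did not pass does not show that its sides had equal levels.

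Foxj1 followed the plexus genes along the coronal and horizontal series and departed from them along the sagittal one. Its r with Ttr was 0.954, 0.944 and 0.542 in the 3 series. Its coronal signal was -2.26 in fraction 1, 1.18 in fraction 3, -0.15 in fraction 5, 0.59 in fraction 7 and 1.29 in fraction 10, so that the later maximum was as high as the first. In the sagittal series it had 1.62 in fraction 6 against 0.27 in fraction 3 and 0.69 in fraction 10. The difference between fraction 6 and the mean of fractions 3 and 10 was 1.14 for Foxj1, 0.74 for Otx2 and 0.28 for Enpp2, and between -0.28 and 0.04 for the main probes of the 7 epithelial genes. Foxj1 and Otx2 were thus higher at the middle fraction than at the outer maxima, and the epithelial genes lay near the median of all probes, which was -0.06.

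Genes of motile cilia had their maxima in the same fractions as Foxj1. Of 21 tested genes of a cilia list, 15 were highest in coronal fraction 10, 18 in horizontal fraction 5 and 17 in sagittal fraction 6, where 3.99%, 6.83% and 9.97% of all probes were highest. The cilia list was chosen with earlier results of these data known, so these counts are descriptions. The named genes most like Foxj1 over the 34 fractions were Dynlrb2 (r = 0.962), Cfap126 (r = 0.955) and Cfap70 (r = 0.946), and 101 probes reached an r of 0.85 with it, a number that 87.9% of all probes stayed below. Dynlrb2 encodes a dynein light chain, and the Cfap genes encode proteins associated with cilia and flagella. By the distance test in limma 9 of the 21 cilia genes passed, against 16.1% of all probes, and Foxj1 did not (adjusted p = 0.0827).

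**Figure D3:**
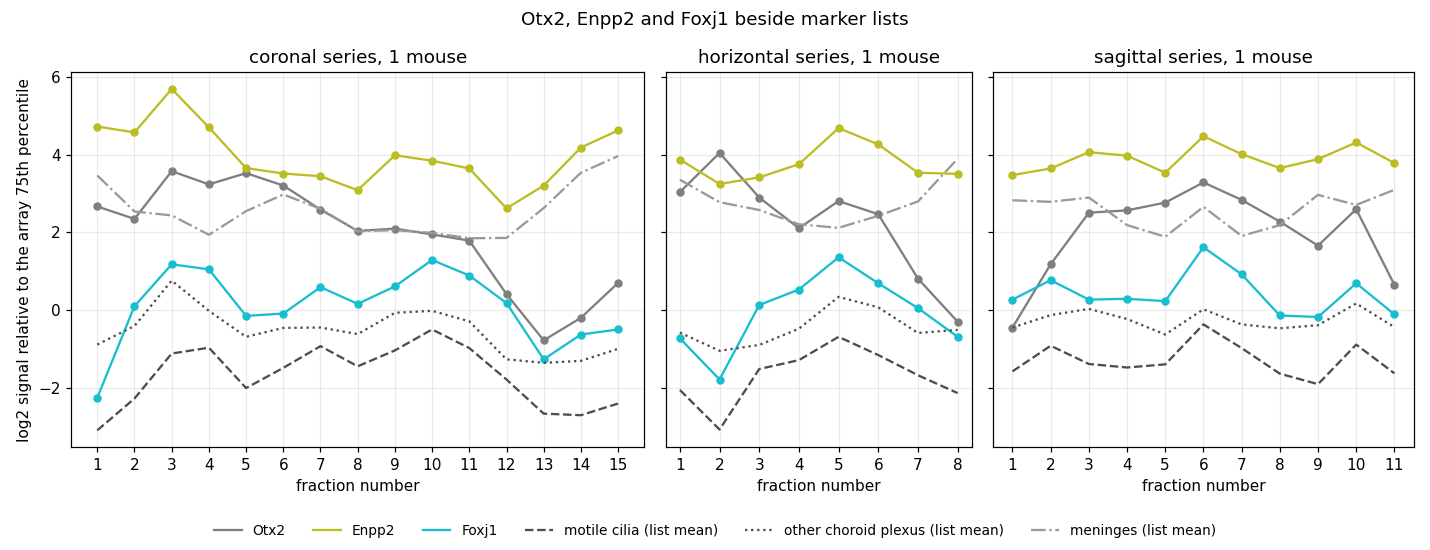
Log2 signal relative to the array's 75th percentile (vertical axis) against the fraction number, for Otx2, Enpp2 and Foxj1 (solid lines, 1 array per point) and for the mean of 3 marker lists (broken grey lines). Foxj1 and the motile cilia list are both highest in coronal fraction 10, horizontal fraction 5 and sagittal fraction 6, Otx2 has its horizontal maximum in fraction 2, and Enpp2 and the meninges list both have higher values in coronal fraction 15 than in fraction 12.

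Otx2, a homeodomain transcription factor of the forebrain, midbrain and plexus, had the lowest r with the epithelial genes, as given below. In the coronal series it had 3.58 in fraction 3 but also 3.53 in fraction 5 and 3.21 in fraction 6. The mean of the epithelial genes was 0.06 and 0.08 in fractions 5 and 6. In coronal fraction 1 Otx2 had 2.67, where that mean was -3.05 and the cerebellar list was highest. The horizontal maximum of Otx2, 4.05, was in fraction 2, where all 7 epithelial genes but Kl were at their lowest. A smaller maximum of 2.81 was in fraction 5. Of all probes, 24.4% were highest in horizontal fraction 2, and the cortical list was also highest there. The midbrain list had its highest means in coronal fraction 6 and horizontal fraction 2, and the pineal list in coronal fraction 8 and horizontal fraction 2. Of the pineal genes, Crx, a retinal and pineal homeodomain factor, was well above background in 3 of 34 fractions. The part of any of these tissues in the Otx2 profile was not tested.

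Enpp2, which encodes autotaxin, an enzyme that makes lysophosphatidic acid, had a wide base under its maxima. In the coronal series it had 4.73 in fraction 1, 5.70 in fraction 3, 3.99 in fraction 9, 2.62 in fraction 12 and 4.63 in fraction 15, and in the sagittal series it stayed between 3.48 and 4.48. It was not like Ttr in fraction 1, where Ttr had its lowest coronal value. The oligodendrocyte list, whose cells are a known source of Enpp2, was highest in coronal fraction 3 with a mean of 1.96 and had 1.01 in fraction 1, and 4 of its 7 tested genes were highest in fraction 3. Its part in the Enpp2 profile was not tested.

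Toward the end of the coronal series 3 genes left the common profile. From fraction 12 to fraction 15, Aqp1 went from -1.10 to 0.80, 2.13 and 3.62, a difference of 4.72 on the log2 scale that exceeded that of 99.9% of all probes. Clic6 went from -0.45 to 1.52 and Enpp2 from 2.62 to 4.63, whereas Ttr was 1.17 log2 units lower in fraction 15 than in fraction 12, Kcne2 1.57 lower and Folr1 0.90 lower. Lists of other cells moved in the same fractions, and 18.7% of all probes were highest in fraction 15. The meninges list had a mean of 1.86 in fraction 12 and 3.97 in fraction 15 with 6 of 9 genes highest there, within a range of 1.85 to 3.97 over the series. The red blood cell list had -0.72 and 0.67 with 3 of 3 tested genes highest there. The olfactory bulb list had -1.54 and 3.90, with 4 of 4 genes highest there. Their part in the levels of Aqp1, Clic6 and Enpp2 was not tested.

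Likeness was measured with Pearson's r over the 34 fractions, with 0.85 as the threshold that the study set for expression similarity. Of the 21 pairs of epithelial genes 7 reached it, against 0.149% of all pairs of probes. The median r was 0.807, with 0.77 in the coronal, 0.911 in the horizontal and 0.837 in the sagittal series. The closest pair was Folr1 and Kcne2 (r = 0.984), followed by Ttr and Kcne2 (r = 0.98), and the lowest r was 0.336 for Aqp1 and Kcne2. With the mean standardized profile of the other epithelial genes, r was 0.943 for Folr1 and Slc4a5, 0.914 for Kcne2, 0.912 for Clic6, 0.89 for Ttr, 0.74 for Kl and 0.485 for Aqp1. Over coronal fractions 1 to 12, without the end of the series, Aqp1 had an r of 0.898 with them.

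Of the 3 genes known also from other cells, Foxj1 had an r of 0.857 with the epithelial profile, with 0.897 in the coronal, 0.89 in the horizontal and 0.606 in the sagittal series. Enpp2 had 0.491 over all fractions, 0.394 in the coronal, 0.964 in the horizontal and 0.838 in the sagittal series, and Otx2 had 0.342 over all fractions, 0.512 in the coronal, -0.039 in the horizontal and 0.495 in the sagittal series. Neighbouring fractions share a mouse and the genes share arrays, so these values are descriptions. The 2 probes of Slc4a5 had an r of 0.957 over the 24 fractions in which both were well above background, and those of Folr1 0.773 over 27.

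**Figure D4:**
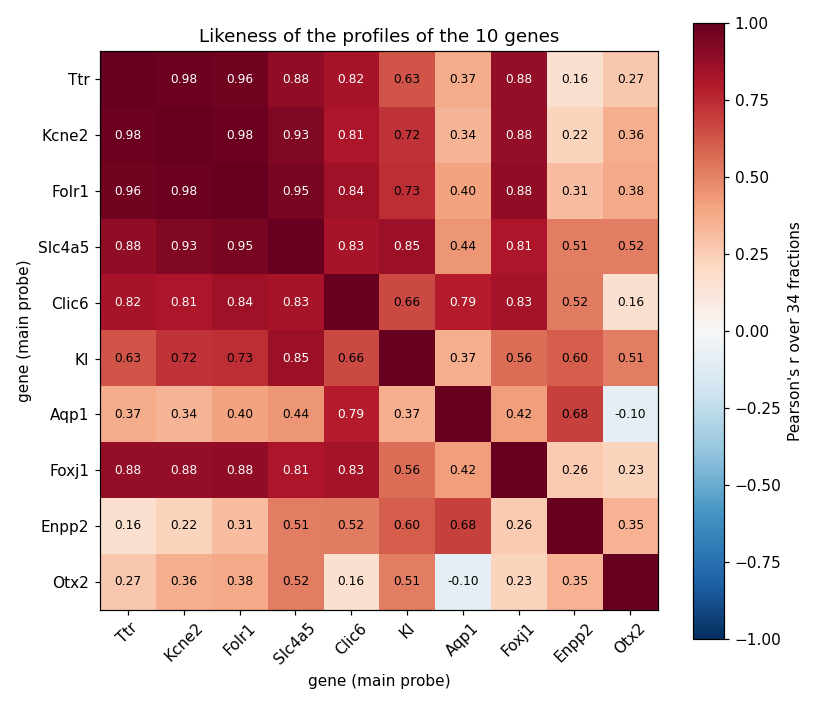
Pearson's r over the 34 fractions between the main probes of the 10 genes, with the value in each cell and the colour scale from -1 to 1. Ttr, Kcne2, Folr1 and Slc4a5 form a block with r from 0.88 to 0.98, Foxj1 lies at 0.81 to 0.88 with these 4, and Otx2 and Aqp1 have the only negative value.

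Genes with profiles like that of Ttr had different slopes on it. Per log2 unit of Ttr the log2 signal of Kcne2 changed by 1.23 (r = 0.985 over the 32 fractions in which both were well above background), that of Slc4a5 by 0.92 (r = 0.923), that of Folr1 by 0.81 (r = 0.965), that of Clic6 by 0.47 (r = 0.821) and that of Foxj1 by 0.41 (r = 0.877). These slopes pool the 3 series and need not hold in each. Clic6 spanned 34.9-fold against 637-fold for Ttr in the coronal series and 11.1-fold against 18.5-fold in the horizontal one. In the sagittal series the spans were 3.15-fold and 3.08-fold. For Kl, Aqp1, Otx2 and Enpp2 the r with Ttr was 0.617, 0.374, 0.272 and 0.163, too low for a slope to describe their spans, and along the sagittal series Otx2 spanned 13.4-fold against 3.08-fold for Ttr.

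Other genes known from the plexus had the same maxima in part. Of 33 tested genes of such a list, 21 were highest in coronal fraction 3, 17 in horizontal fraction 5 and 13 in sagittal fraction 10, where 3.11%, 6.83% and 7.47% of all probes were highest. The list was chosen with earlier results of these data known, so its counts are descriptions. The median r of the list with the epithelial profile was 0.643, with 7 genes at 0.85 or more and 15 at 0.7 or more, against a median of -0.072 over all probes, 0.12% of which reached 0.85 and 0.585% of which reached 0.7. The most alike were Ecrg4, a secreted peptide precursor (r = 0.924), Car12, a carbonic anhydrase (r = 0.912), Tmem72 (r = 0.908), Steap1 (r = 0.897) and Sostdc1, a secreted inhibitor of BMP and Wnt signals (r = 0.896). In limma 5 of the 33 genes varied with the distance from the midline, 3 were higher medially and 5 laterally, against 16.1%, 7.22% and 9.42% of all probes. The cilia list had a median r of 0.689, the oligodendrocyte list 0.286, the red blood cell list -0.242, the endothelial list -0.357 and the meninges list -0.366.

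Among all named genes outside the 10, those most like the epithelial profile over the 34 fractions were Defb11 (r = 0.956) and Tex22 (r = 0.952), ahead of Ecrg4, and then Prr32 (r = 0.917), Arsg (r = 0.913), Car12, Tmem72, Ins1 (r = 0.908), Defb9 (r = 0.904) and Steap1. Defb11 and Defb9 belong to the beta-defensin family and Ins1 is a close copy of Ins2, so for these the gene behind the signal is uncertain. For single genes the number of probes at an r of 0.85 or more was 80 for Kcne2, 78 for Folr1, 43 for Ttr, 35 for Slc4a5 and 14 for Clic6, and 4 for Kl and Enpp2, 3 for Otx2 and 2 for Aqp1. Of all probes, 85.7% had fewer than Kcne2, 80.0% fewer than Ttr and 51.4% fewer than Aqp1. A number like that of Aqp1 is thus common, and that of Kcne2 is less so. Among named genes, Kl was most like Slco1a4 (r = 0.856), an organic anion transporter of brain vessels and plexus, then Slc4a5 (r = 0.853). Aqp1 was most like Baiap2l1 (r = 0.867) and Car14 (r = 0.852), another carbonic anhydrase, Enpp2 was most like Cdh3 (r = 0.889), and Otx2 had Hhip (r = 0.842), Esrrb (r = 0.825) and Fibcd1 (r = 0.819).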

How the data were processed

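Brains of 3 mice were measured in 34 fractions, 1 single-colour array each. The authors scanned the arrays with Agilent Feature Extraction 10.10.1.1, per the submitters' processing notes, and deposited intensity values per spot (background-subtracted processed signal) with flags, and log2 values, of which 99.9% lay within 0.02 of those computed here. Spots of a probe were averaged here, and the array's log2 75th percentile was subtracted from their log2. Detection needed the well-above-background flag on most spots, and 34186 probes had it somewhere in all 3 series. Of the probes, 26576 were named through a RefSeq table of GRCm38.p6, used for names and promoters only.

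The members and lists were chosen with earlier results of these data known. The genes named are the 10 members, the 10 named genes most like the epithelial profile, the 3 most like each member and up to 5 of each list. Genes named beyond these, among them 4 plexus list genes of negative r, were chosen after their values were seen. Peaks, Pearson's r and counts were computed with Python 3.11.15, numpy 2.4.6 and pandas 2.3.3, and were given no test. Sagittal fractions were tested with limma 3.58.1 in R 4.3.3 (moderated tests by eBayes, p adjusted over the 34186 probes by Benjamini-Hochberg, threshold 0.05). Each test was run on simulated data with 200 probes changed by 2 log2 units. This size lay above the members' own differences in the medial, intermediate and side tests. The distance test gives no single difference, and Otx2 ran from -0.45 in sagittal fraction 1 to 3.29 in fraction 6. The distance test recovered 151, the medial test 179, the intermediate test 198 and the side test 179, with 7 to 14 false calls. Every simulation used the residual SD of the distance fit and held no gradient within a zone. The medial and intermediate tests may therefore recover fewer in the real data. Alternatives were the array's median, quantile normalization, normexp (offset 50) on the median signals, the deposited log2 values, other prominences, Spearman's rho, linear signals, other detection rules, limma-trend, other midlines, and leaving out slides or fractions. The alternatives without horizontal fraction 1, without coronal fraction 15, without coronal fractions 13 to 15, and with another midline for the contrasts were chosen after seeing the data. With 1 array per fraction, the number of arrays limits the precision.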

Additional observations from a re-analysis of the deposited data

Results flagged for a closer look

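The 10 genes were searched for single values far from the rest, over the 8 horizontal fractions and over the 5 sagittal mirror pairs, by Dixon's test at its 95% critical value. Of the 20 groups searched, 0 held such a value, where chance alone gives about 1 in 20.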

How the results depend on the processing

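The number of genes with 2 or more coronal peaks (9) was 5 with a prominence of 2. The number of horizontal ones (7) was 3 with normexp, 2 with a prominence of 2 and 0 without fraction 1, and the number of sagittal ones (6) was 10 with a prominence of 0.5 and 0 with 2. All other alternatives kept these counts within 1.5 times. The median r of the epithelial genes stayed within the SD of the 21 values (0.22), between 0.603 with all 10 genes and 0.884 with linear signals. The number of genes that varied with sagittal distance (0) was 2 with normexp and with limma-trend (Otx2 and Foxj1) and 1 with the midline between 6 and 7 (Otx2), and lay between 0 and 1 on leaving out 1 fraction, with Otx2 called without fraction 10. The number that differed between medial and lateral fractions (1) was 0 on 1 slide, 0 without a detection filter and 0 without the pooled fractions, and between 0 and 1 on leaving out 1 fraction. Otx2 passed in 7 of 20 alternatives. Intermediate and side tests stayed at 0 throughout. No paired analysis was possible because equal fraction numbers of the 3 series are positions along different axes of different mice, and the mirror pairs of the side test lie within 1 mouse. Signals near background limit Kl, Kcne2 and Slc4a5 in the dim coronal fractions.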

Other observations

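Of the 33 tested genes of the plexus list, 4 had a negative r with the epithelial profile over the 34 fractions. These were Igf2, a fetal growth factor (r = -0.444), Stra6, a receptor for retinol-binding protein (r = -0.41), Igfbp2, which binds insulin-like growth factors (r = -0.279), and Slc13a4, a sulfate transporter (r = -0.25). Igf2 and Stra6 were highest in coronal fraction 1 and horizontal fraction 1, where 12.3% and 17.3% of all probes were highest. No horizontal result without fraction 1 was computed for them. Slc13a4 and Igfbp2 were highest in coronal fraction 15, as were 18.7% of all probes, and the meninges list also had its highest mean there. That list was highest in horizontal fraction 8 and sagittal fraction 11, as was Slc13a4. Igfbp2 was highest in horizontal fraction 1 and sagittal fraction 3. Sspo, the gene of SCO-spondin, which is secreted by ependymal cells of the subcommissural organ, passed the background flag in 6 fractions and was highest in coronal fraction 7, horizontal fraction 3 and sagittal fraction 6.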
